A study of Arachis hypogaea with 15 samples.

Results

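The genes described here are the class I and CYCLOIDEA/TEOSINTE BRANCHED 1 (CYC/TB1) type TCP transcription factor genes of peanut, Arachis hypogaea, a tetraploid crop whose A and B subgenomes usually hold a copy of each gene. They were taken by their deposited product names, as rows named transcription factor TCP, CYCLOIDEA, DICHOTOMA or TEOSINTE BRANCHED, without the names of the CIN type. This gave 20 of the 59878 listed genes, of which 12 carry class I names (TCP7, TCP8, TCP14, TCP19 and TCP20) and 8 carry names of the CYC/TB1 type. The file's own transcription factor column puts 17 of the 20 in the TCP family, and the other 3 are all named TCP7-like. That column also puts 12 further rows in the family. Of these, 10 carry a CIN-type name, and the rest were in neither list.

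TCP proteins are plant-specific transcription factors that bind DNA through a noncanonical basic helix-loop-helix domain. In Arabidopsis, class I members act with much redundancy on cell proliferation and organ growth, and CIN-type members promote the passage from division to differentiation in leaves. The CYC/TB1 group is named for CYCLOIDEA and DICHOTOMA, which set dorsal identity in the flower of Antirrhinum, and for TEOSINTE BRANCHED 1 of maize, which holds back the outgrowth of axillary buds.

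RNA sequencing was done on 15 libraries in 5 groups of 3, which the design text calls biological replicates. Mutant apices came from a peanut with a pentafoliate (altered leaflet number) phenotype, for which the labels name no gene. The wild-type (WT) groups are apices of the shoot, petioles, terminal leaflets and lateral leaflets. All plants were 40 days old and were grown in soil with 16 h days at 22 °C and 70% relative humidity. The labels do not say whether libraries of a group came from separate plants, so p-values measure the spread between these libraries.

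Depth, estimated from the step that 1 fragment makes among low values, was 17.4 to 18.4 M fragments per library, and the correlation between libraries of 1 group, across genes, was 0.988 to 0.990. The labelled tissues were set against marker lists. The list for the shoot apex held 27 KNOX genes, taken by product name and of whatever KNOX class. Their summed levels were 405.3 to 407.2 FPKM (fragments per kilobase of transcript and M fragments sequenced) in mutant apices and 294.2 to 309.3 in WT apices. In petioles they were 58.5 to 59.5 and in leaflets 122.0 to 136.8, so the list is not specific to the apex. Summed levels of 33 Rubisco small subunit and chlorophyll-binding genes were 6131 to 6347 FPKM in mutant apices, 5520 to 5864 in WT apices, 9195 to 9204 in petioles and 21620 to 27967 in leaflets. Transcripts of green tissue were thus present in the apex libraries too. A list of 18 secondary-wall cellulose synthase genes stood at 27.1 to 27.3 FPKM in mutant apices, 23.97 to 25.95 in WT apices, 36.8 to 38.0 in petioles and 32.2 to 33.6 in leaflets, and 29 floral genes at 134.9 to 146.5 in apices and 103.5 to 111.1 in the other groups. At most 7 genes of any list were at 0 in a group. The part that the mix of tissues played in the results was not tested. In bulk samples, fewer cells of a type and less RNA per cell cannot be told apart.

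Of the 20 genes, 13 reached 1 FPKM in at least 3 libraries and were tested, 10 of class I and 3 of the CYC/TB1 type. The remaining 7 were 2 TCP7-like and 5 DICHOTOMA-like genes, none of which exceeded 0.39 FPKM in any library. Class I transcripts summed to 279.7 ± 4.01 FPKM in mutant apices, 282.9 ± 1.98 in WT apices, 266.1 ± 2.83 in petioles, 162.5 ± 1.94 in terminal leaflets and 172.6 ± 7.54 in lateral leaflets (SD, n = 3 each). CYC/TB1 transcripts summed to 9.13 ± 0.258 FPKM in mutant apices, 8.22 ± 0.718 in WT apices, 3.37 ± 0.353 in petioles, 0.617 ± 0.0764 in terminal leaflets and 0.927 ± 0.206 in lateral leaflets. Class I genes were therefore present in every tissue, while the CYC/TB1 type averaged less than 1 FPKM in sum in either leaflet. The TCP14 genes held 32.7% of the class I sum in mutant apices, 35.9% in WT apices, 43.0% in petioles, 18.5% in terminal leaflets and 19.3% in lateral leaflets. The TCP8 genes held 19.6% in mutant apices, 16.9% in WT apices, 11.1% in petioles, 26.6% in terminal leaflets and 26.8% in lateral leaflets.

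**Figure D1:**
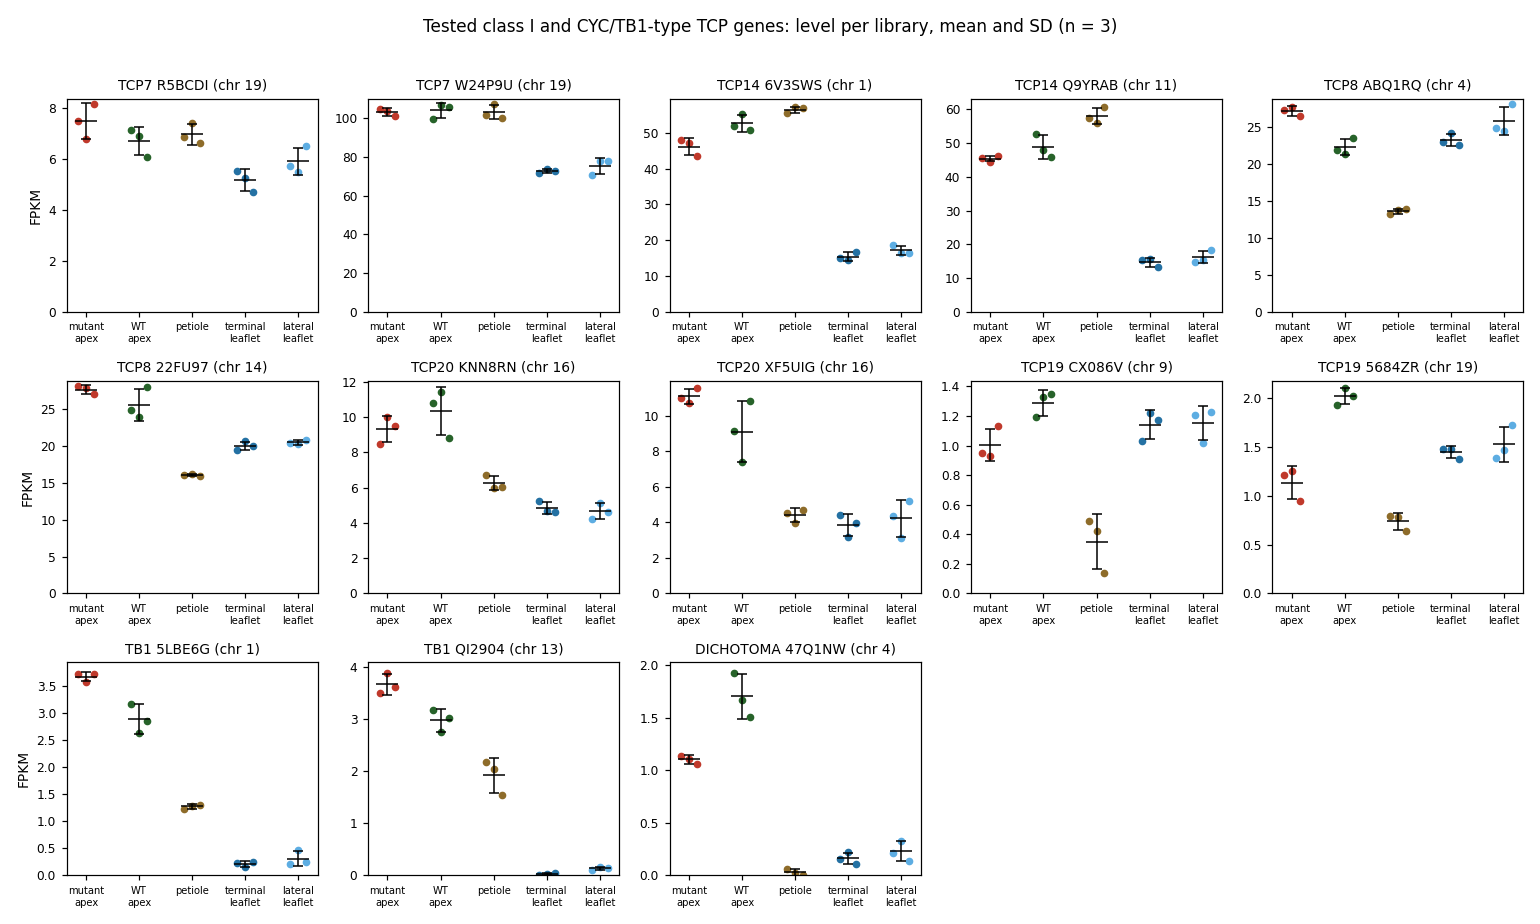
Level of each of the 13 tested genes in FPKM (linear axis from 0, scaled per gene) in every library of the 5 groups; points are libraries, horizontal bars are group means and whiskers are SD (n = 3). Both TCP14 genes stand between 43.5 and 60.75 FPKM in apices and petioles and between 13.13 and 18.59 in leaflets, and both TEOSINTE BRANCHED 1 genes are near 0 in leaflets.

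Changes below are differences of log2(FPKM + 1) between groups from limma, with the standard error, and the word called stands for a p under 0.05 after Benjamini-Hochberg adjustment over all 39031 genes tested. The F test over the 4 WT tissues called 13 of the 13 tested genes, against a background of 87.1% of all genes, with adjusted p from 2.39e-13 to 0.00284. Between the WT apex and the mean of the leaflets, 11 were higher and 1 was lower in the apex; 79.6% of all genes were called there, 35.3% higher and 44.3% lower. The share of higher members, 11 of 13, was larger than among all genes, and the median change was 0.97, against −0.09 over all genes. The 3 CYC/TB1 genes reached 1 FPKM only in apex or petiole libraries, so the filter itself favoured this direction for them. This bears on their counts in the comparisons below too. Of the 10 class I genes alone, 8 were higher and 1 was lower, with a median of 0.40. Between the petiole and the leaflets, 7 were higher and 5 were lower in the petiole, with a background of 74.8% called, 30.8% higher and 44.1% lower. The median change was 0.29, against −0.11 over all genes. The 10 class I genes alone gave 5 higher and 4 lower, with a median of 0.20. Between the WT apex and the petiole, 9 were higher and 1 was lower in the apex, with a background of 54.7% called, 27.5% higher and 27.2% lower. The median change there was 0.64, against 0.01 over all genes. The 10 class I genes alone gave 6 higher and 1 lower, with a median of 0.64. The TCP19 genes reached 1 FPKM in no petiole library, so for them the filter favoured a lower petiole in both comparisons with it. Quantile normalization moved the median of all genes in the petiole comparison to 0.02 and the share of called genes that were higher to 52.5%, against 41.1% as reported. In these 3 comparisons the number of the 13 genes called stayed within 1.5 times under every setting tried. The WT apex and the petiole are both set against the same leaflet libraries, so the first 2 of these tissue comparisons are not independent.

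**Figure D2:**
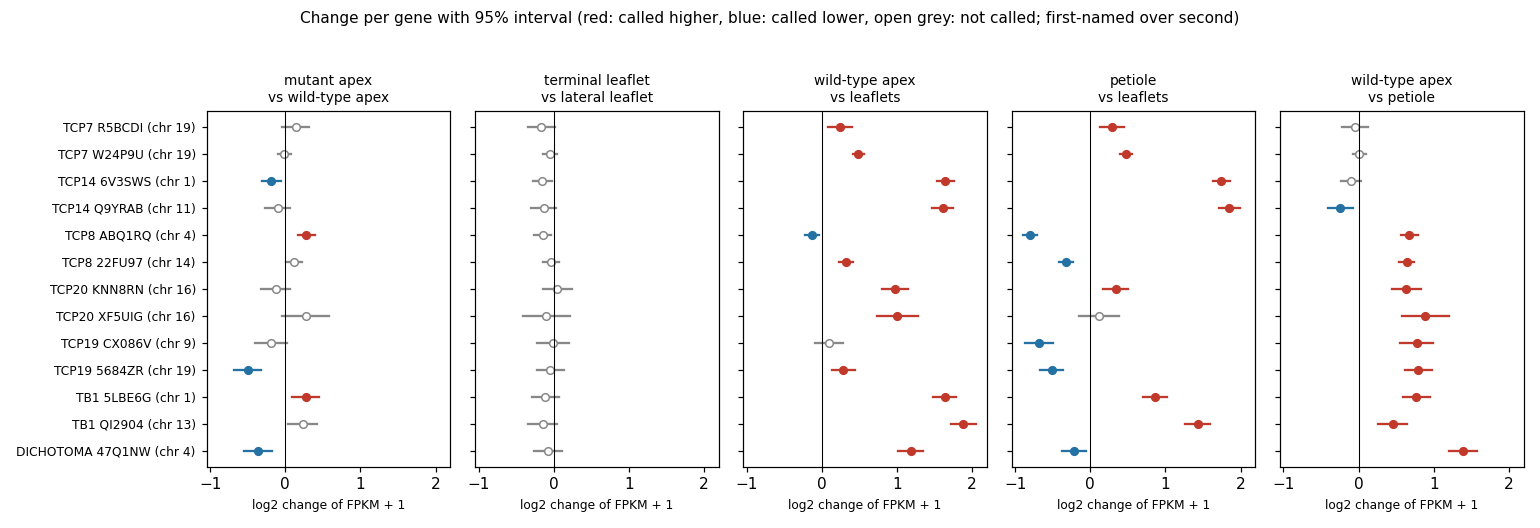
Change of log2(FPKM + 1) of each of the 13 tested genes in the 5 comparisons, first-named group over second; points are estimates, lines are 95% intervals, filled red and blue are called higher and lower, open grey are not called. The TCP14 and TEOSINTE BRANCHED 1 genes lie far right in both comparisons with the leaflets, and no gene is called between the leaflets.

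Both TCP14 genes were more than 3-fold higher in the WT apex and in the petiole than in leaflets. TCP14 acts in Arabidopsis on internode growth together with its relative TCP15. The TCP14-like gene arahy.6V3SWS.1 (chromosome 1, 111396243 to 111397559, plus strand, in the coordinates of the deposited table) had 47.96, 47.05 and 43.5 FPKM in mutant apices, 52.0, 55.35 and 50.72 in WT apices and 55.52, 57.09 and 56.85 in petioles, against 14.87, 14.42 and 16.73 in terminal and 18.59, 16.41 and 16.38 in lateral leaflets. The TCP14 gene arahy.Q9YRAB.1 (chromosome 11, 123697432 to 123698751, minus strand) had 45.63, 44.48 and 46.18 FPKM in mutant apices, 52.72, 48.11 and 45.76 in WT apices and 57.33, 55.96 and 60.75 in petioles, against 15.29, 15.58 and 13.13 in terminal and 14.8, 15.44 and 18.3 in lateral leaflets. No apex or petiole library overlapped a leaflet library for either gene. In the WT apex over leaflets, arahy.6V3SWS.1 rose by 1.64 ± 0.0523 (SE, adjusted p = 3.42e-13) and arahy.Q9YRAB.1 by 1.61 ± 0.0662 (adjusted p = 7.24e-12), that is 3.25 and 3.17 times the leaflet mean in FPKM. In the petiole over leaflets the changes were 1.74 ± 0.0523 (adjusted p = 3.04e-13) for arahy.6V3SWS.1 and 1.85 ± 0.0662 (adjusted p = 2.2e-12) for arahy.Q9YRAB.1. The petiole was the higher of the 2 tissues for arahy.Q9YRAB.1, which was lower in the WT apex than in the petiole by −0.24 ± 0.0764 (adjusted p = 0.0139). This last call was lost under TPM rescaling (adjusted p = 0.0593), under quantile normalization (adjusted p = 0.12), without petiole replicate 3 (adjusted p = 0.0557) and without WT apex replicate 3 (adjusted p = 0.0628). For arahy.6V3SWS.1 the apex to petiole change was −0.10 (adjusted p = 0.182).

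The TCP7 gene had the highest level of all 20 genes and a smaller tissue difference. The TCP7 gene arahy.W24P9U.1 (chromosome 19, 153036959 to 153037759, minus strand) had 105.02, 103.62 and 101.03 FPKM in mutant apices, 99.4, 107.1 and 105.7 in WT apices and 101.79, 107.45 and 100.41 in petioles, against 71.63, 73.89 and 72.65 in terminal and 70.6, 77.69 and 77.97 in lateral leaflets. Apex and petiole libraries overlapped each other and all stood above the leaflet libraries. The gene was higher by 0.49 ± 0.0365 in the WT apex (adjusted p = 9.61e-09) and by 0.47 ± 0.0365 in the petiole (adjusted p = 1.73e-08) than in leaflets, or 1.40 and 1.39 times their mean in FPKM. Its change between the WT apex and the petiole was 0.01 (adjusted p = 0.837), and 0.17 and called under quantile normalization (adjusted p = 0.0027). A second row, arahy.R5BCDI.1 (chromosome 19, 4187962 to 4190307, plus strand), is named TCP7-like and partial, and stood at 7.49 ± 0.705 FPKM in mutant apices, 6.72 ± 0.561 in WT apices, 6.98 ± 0.415 in petioles, 5.17 ± 0.43 in terminal and 5.92 ± 0.536 in lateral leaflets. It was called higher by 0.24 ± 0.072 in the WT apex (adjusted p = 0.00674) and by 0.29 ± 0.072 in the petiole (adjusted p = 0.0021) than in leaflets, and WT apex and leaflet libraries overlapped. The other 2 TCP7-like rows, arahy.8Y049H.1 and arahy.N7WF48.1, share 1 locus and all values (chromosome 14, 141789316 to 141794004, plus strand) and stood at 0.10 FPKM or less.

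The TCP8 genes were lowest in the petiole, in contrast to TCP14 and TCP7. The TCP8-like gene arahy.ABQ1RQ.1 (chromosome 4, 2968102 to 2969592, plus strand) had 27.32, 27.68 and 26.41 FPKM in mutant apices, 21.88, 21.36 and 23.49 in WT apices and 13.18, 13.71 and 13.87 in petioles, and 22.97, 24.17 and 22.54 in terminal and 24.88, 24.46 and 28.03 in lateral leaflets. The TCP8 gene arahy.22FU97.1 (chromosome 14, 4287692 to 4289179, plus strand) had 28.11, 27.93 and 27.02 FPKM in mutant apices, 24.85, 23.91 and 28.02 in WT apices and 16.08, 16.18 and 15.89 in petioles, and 19.48, 20.64 and 20 in terminal and 20.38, 20.25 and 20.88 in lateral leaflets. For both genes the petiole libraries lay below every other library. The petiole was lower than the leaflets by −0.80 ± 0.0456 for arahy.ABQ1RQ.1 (adjusted p = 4.79e-10) and by −0.32 ± 0.0425 for arahy.22FU97.1 (adjusted p = 7.51e-06). The WT apex was higher than the petiole by 0.67 ± 0.0527 for arahy.ABQ1RQ.1 (adjusted p = 5.73e-08) and by 0.64 ± 0.0491 for arahy.22FU97.1 (adjusted p = 4.64e-08). The copies differed in the apex against the leaflets: arahy.22FU97.1 was higher in the WT apex by 0.32 ± 0.0425 (adjusted p = 6.07e-06), whereas arahy.ABQ1RQ.1 was lower by −0.13 ± 0.0456 (adjusted p = 0.0158). The call on arahy.ABQ1RQ.1 came with overlapping libraries and was lost under TPM rescaling (adjusted p = 0.490), quantile normalization (adjusted p = 0.240), and without WT apex replicate 1 (adjusted p = 0.0565) or 2 (adjusted p = 0.0854).

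The TCP20 and TCP19 genes were expressed at lower levels. TCP20 binds promoters of cell-cycle and ribosomal protein genes in Arabidopsis. Its 2 rows, arahy.XF5UIG.1 (chromosome 16, 132803881 to 132807987, minus strand) and arahy.KNN8RN.1 (132806525 to 132807987 on the same strand), overlap, so the division of reads between them is uncertain. The row arahy.XF5UIG.1 had 10.98, 10.71 and 11.55 FPKM in mutant apices, 9.12, 7.38 and 10.8 in WT apices and 4.55, 3.97 and 4.7 in petioles, against 4.42, 3.19 and 3.94 in terminal and 4.37, 3.12 and 5.2 in lateral leaflets. The row arahy.KNN8RN.1 had 8.5, 9.99 and 9.48 FPKM in mutant apices, 10.78, 11.42 and 8.8 in WT apices and 6.74, 6.0 and 6.04 in petioles, against 5.25, 4.67 and 4.63 in terminal and 4.21, 5.12 and 4.64 in lateral leaflets. The WT apex libraries stood above all petiole and leaflet libraries in both rows. The WT apex exceeded the leaflets by 1.00 ± 0.125 for arahy.XF5UIG.1 (adjusted p = 3.29e-06) and by 0.97 ± 0.0797 for arahy.KNN8RN.1 (adjusted p = 2.58e-08), and it exceeded the petiole by 0.89 ± 0.145 (adjusted p = 0.000108) and 0.64 ± 0.092 (adjusted p = 3.4e-05). The petiole exceeded the leaflets for arahy.KNN8RN.1 by 0.34 ± 0.0797 (adjusted p = 0.00147), and the change for arahy.XF5UIG.1 was 0.11 (adjusted p = 0.424), which became 0.30 and passed the test under quantile normalization (adjusted p = 0.0391).

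The TCP19 genes stood near 1 to 2 FPKM in apices and leaflets and, like TCP8, were lowest in the petiole. No petiole library reached 1 FPKM for either gene. Both passed the filter only through apex and leaflet libraries, so the filter itself favoured a lower petiole for them. The TCP19 gene of chromosome 19 (157994787 to 157997637, plus strand) had 1.21, 1.25 and 0.94 FPKM in mutant apices, 1.93, 2.1 and 2.02 in WT apices and 0.79, 0.78 and 0.64 in petioles, and 1.48, 1.48 and 1.37 in terminal and 1.38, 1.47 and 1.72 in lateral leaflets. Its WT apex libraries stood above those of all other groups, and its petiole libraries below. It was higher by 0.28 ± 0.0716 in the WT apex (adjusted p = 0.00221) and lower by −0.52 ± 0.0716 in the petiole (adjusted p = 1.16e-05) than in leaflets, and was 0.80 ± 0.0826 higher in the WT apex than in the petiole (adjusted p = 1.16e-06). The TCP19-like gene arahy.CX086V.1 (chromosome 9, 109849678 to 109852244, plus strand) averaged 1.00 ± 0.11 FPKM in mutant apices, 1.29 ± 0.0872 in WT apices, 0.35 ± 0.185 in petioles, 1.14 ± 0.0985 in terminal and 1.15 ± 0.116 in lateral leaflets (SD, n = 3 each). It was lower in the petiole than in leaflets by −0.68 ± 0.0869 (adjusted p = 5.03e-06), was 0.77 ± 0.1 higher in the WT apex than in the petiole (adjusted p = 1.21e-05), and its change between WT apex and leaflets was 0.09 (adjusted p = 0.332).

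The genes named for TEOSINTE BRANCHED 1 were highest in the apices, intermediate in petioles and close to 0 in leaflets. Their relative in Arabidopsis, BRANCHED1, acts inside axillary buds. The TEOSINTE BRANCHED 1-like gene arahy.5LBE6G.1 (chromosome 1, 108380381 to 108382890, plus strand) had 3.73, 3.59 and 3.73 FPKM in mutant apices, 3.18, 2.63 and 2.86 in WT apices and 1.23, 1.29 and 1.31 in petioles, against 0.22, 0.15 and 0.25 in terminal and 0.21, 0.46 and 0.25 in lateral leaflets. The TEOSINTE BRANCHED 1 gene arahy.QI2904.1 (chromosome 13, 45539292 to 45541730, minus strand) had 3.49, 3.89 and 3.62 FPKM in mutant apices, 3.17, 2.74 and 3.01 in WT apices and 2.18, 2.04 and 1.53 in petioles, against 0.0, 0.03 and 0.04 in terminal and 0.1, 0.16 and 0.14 in lateral leaflets. For both genes the apices, the petiole and the leaflets formed 3 ranges that did not overlap. The WT apex was higher than the leaflets by 1.88 ± 0.0773 for arahy.QI2904.1 (adjusted p = 6.94e-12) and by 1.63 ± 0.0741 for arahy.5LBE6G.1 (adjusted p = 2.32e-11). In FPKM the WT apex held 38.0 times the leaflet mean of arahy.QI2904.1 and 11.3 times that of arahy.5LBE6G.1, but the leaflet values of arahy.QI2904.1 rest on an estimated 3 fragments in the terminal and 16 in the lateral libraries. The petiole was higher than the leaflets by 1.43 ± 0.0773 for arahy.QI2904.1 (adjusted p = 2.68e-10) and by 0.86 ± 0.0741 for arahy.5LBE6G.1 (adjusted p = 6.07e-08). The WT apex was higher than the petiole by 0.45 ± 0.0892 (adjusted p = 0.000572) for arahy.QI2904.1 and 0.77 ± 0.0855 (adjusted p = 2.37e-06) for arahy.5LBE6G.1.

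Of the 6 DICHOTOMA-like genes, 1 was tested, and it was found in the apices and close to 0 elsewhere. The gene arahy.47Q1NW.1 (chromosome 4, 126017493 to 126020268, minus strand) had 1.14, 1.11 and 1.06 FPKM in mutant apices, 1.93, 1.67 and 1.51 in WT apices and 0.06, 0.02 and 0.0 in petioles, against 0.15, 0.22 and 0.11 in terminal and 0.21, 0.33 and 0.14 in lateral leaflets. Petiole libraries lay below leaflet libraries, and both far below every apex library. The WT apex was higher by 1.18 ± 0.076 than the leaflets (adjusted p = 1.53e-09) and by 1.39 ± 0.0878 than the petiole (adjusted p = 5.13e-09). The petiole was called lower than the leaflets by −0.21 ± 0.076 (adjusted p = 0.0193), on an estimated 4 fragments in its 3 libraries, and this call was lost without petiole replicate 2 (adjusted p = 0.055) or 3 (adjusted p = 0.07). The 5 untested DICHOTOMA-like genes lie on chromosomes 9, 10, 18, 19 and 20. The highest of them, arahy.TU0X8W.1 on chromosome 19, reached 0.16, 0.39 and 0.22 FPKM in mutant apices and 0, 0.24 and 0.26 in WT apices, and stood at 0.18 or less in every petiole and leaflet library. With no filter on low values, arahy.18WYEQ.1 and arahy.DG8AQJ.1 were also called higher in the WT apex than in leaflets, by 0.20 and 0.21 (adjusted p = 0.000315 and 0.0165). These calls rest on an estimated 19 and 11 fragments in the WT apex libraries. The values of arahy.DG8AQJ.1 there were 0.34, 0.15 and 0.0 FPKM. The other untested DICHOTOMA-like genes were not called in that comparison.

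In the mutant apex, 5 of the 13 genes differed from the WT apex, 2 higher and 3 lower, at a background of 35.6% of all genes called, 23.7% higher and 11.9% lower. The share of members is near that background. The median change of the 13 genes was −0.01, against 0.07 over all genes, and 7 of the 13 had an unadjusted p under 0.05. The summed KNOX, leaflet and cellulose synthase markers were also higher in every mutant apex library than in any WT apex library, and their part in these changes was not tested. The strongest fall was that of the TCP19 gene of chromosome 19, at 1.21, 1.25 and 0.94 FPKM in mutant apices against 1.93, 2.1 and 2.02 in WT apices. Its libraries did not overlap, and the change of −0.50 ± 0.0826 (adjusted p = 0.000296), a FPKM ratio of 0.562, was called in all 13 alternatives. The TCP8-like gene arahy.ABQ1RQ.1 was higher, with 27.1 ± 0.655 FPKM in mutant apices and 22.2 ± 1.11 in WT apices (SD, n = 3 each), a change of 0.28 ± 0.0527 (adjusted p = 0.000944) that was also called in all 13. Its copy arahy.22FU97.1 averaged 27.7 ± 0.584 FPKM in mutant apices and 25.6 ± 2.15 in WT apices, with overlapping libraries and a change of 0.11 (adjusted p = 0.0917) that passed the test without WT apex replicate 3 (adjusted p = 0.00455).

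The remaining calls between the apices were less stable. The DICHOTOMA-like gene arahy.47Q1NW.1 was lower in the mutant, at 1.10 ± 0.0404 FPKM against 1.70 ± 0.212 in WT apices, by −0.36 ± 0.0878 (adjusted p = 0.00549) with no overlap of libraries, and was not called with a pseudocount of 0.1 (adjusted p = 0.139). The TEOSINTE BRANCHED 1-like gene arahy.5LBE6G.1 was higher, at 3.68 ± 0.0808 FPKM in mutant apices and 2.89 ± 0.276 in WT apices, by 0.27 ± 0.0855 (adjusted p = 0.0239). This call was lost with a pseudocount of 0.1 (adjusted p = 0.224), under TPM rescaling (adjusted p = 0.0594) and quantile normalization (adjusted p = 0.0718), and without mutant replicate 1 (0.0634) or 3 (0.0627) or WT apex replicate 2 (0.0968) or 3 (0.0582). The change of the other TEOSINTE BRANCHED 1 gene, arahy.QI2904.1, was 0.23 (adjusted p = 0.0563), with no overlap of the libraries; without the trend and robust options of limma it passed (adjusted p = 0.0303). The TCP14-like gene arahy.6V3SWS.1 was lower in mutant apices, at 46.2 ± 2.36 FPKM against 52.7 ± 2.39 in WT apices with no overlap, by −0.19 ± 0.0604 (adjusted p = 0.0263), a call that was lost without mutant replicate 3 (adjusted p = 0.111) or WT apex replicate 2 (adjusted p = 0.105). Its copy arahy.Q9YRAB.1 had a change of −0.10 (adjusted p = 0.335). The change of TCP7, arahy.W24P9U.1, was −0.01, with a 95% interval of −0.10 to 0.08. Of the genes called between the apices, 66.6% were higher in the mutant, and 52.99% under quantile normalization.

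Between terminal and lateral leaflets, limma called 0 of the 13 genes, at a background of 13.1% of all genes, 5.63% higher and 7.45% lower, and 2 had an unadjusted p under 0.05. These were arahy.ABQ1RQ.1, with 23.2 ± 0.845 FPKM in terminal and 25.8 ± 1.95 in lateral leaflets (change −0.14, adjusted p = 0.0937), and arahy.6V3SWS.1, with 15.3 ± 1.22 FPKM in terminal and 17.1 ± 1.27 in lateral leaflets (change −0.15, adjusted p = 0.128). Changes of the 13 ran between −0.16 and 0.05, and their 95% intervals between −0.41 and 0.25, so larger differences on this scale lie outside the intervals. For the 3 CYC/TB1 genes, near 0 in leaflets, the scale shrinks differences, so the intervals do not bound their FPKM ratios. Terminal over lateral, these were 0.706 for arahy.47Q1NW.1, 0.674 for arahy.5LBE6G.1 and 0.175 for arahy.QI2904.1. Of these 3 genes, only arahy.QI2904.1 had terminal and lateral libraries that did not overlap. Among the class I genes the same held for arahy.ABQ1RQ.1 alone. The share of all genes without overlap was not counted. In 12 of the 13 the terminal leaflet had the lower fitted value, with a median of −0.10. All genes leaned the same way, with a median of −0.03, and their share with a lower value was not counted. The 13 include same-named pairs and overlapping rows, so they are not independent. The gene arahy.QI2904.1 was called with a pseudocount of 0.1 (change −0.93, adjusted p = 0.00557), on the few fragments given above, and arahy.6V3SWS.1 was called without terminal replicate 3 (change −0.21, adjusted p = 0.0396).

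Most of the tested genes come in pairs with the same name, on chromosomes 1 and 11 for TCP14, 4 and 14 for TCP8, 9 and 19 for TCP19 and 1 and 13 for TEOSINTE BRANCHED 1, while the 2 TCP20 rows overlap at 1 locus. The chromosome numbers of the TEOSINTE BRANCHED 1 pair do not correspond as those of the TCP14, TCP8 and TCP19 pairs do. It was joined by name, and whether its genes are subgenome copies of each other was not tested. Near-identical copies can exchange reads, so the division within a pair is less certain than its sum. The share of a pair's summed FPKM held by its first gene was compared over the 5 groups with an exact permutation test over all 1401400 divisions of the 15 libraries into 5 groups of 3, adjusted over the 5 pairs; the test was chosen after the values were seen. The TCP14 pair kept near equal shares, with arahy.6V3SWS.1 at 50.4 ± 1.63% in mutant apices, 51.9 ± 2.0% in WT apices, 49.3 ± 1.09% in petioles, 51.1 ± 4.28% in terminal and 51.5 ± 4.22% in lateral leaflets (exact adjusted p = 0.843). In the TCP8 pair, arahy.ABQ1RQ.1 held 49.5 ± 0.251% in mutant apices, 46.5 ± 0.828% in WT apices and 45.8 ± 0.781% in petioles, against 53.7 ± 0.606% in terminal and 55.7 ± 1.43% in lateral leaflets (exact adjusted p = 1.07e-05). Its mean share was thus over 50% in both leaflet groups and under 50% in the other 3.

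In the TEOSINTE BRANCHED 1 pair, arahy.5LBE6G.1 held 50.1 ± 1.91% in mutant apices, 49.3 ± 0.721% in WT apices and 40.3 ± 5.21% in petioles, against 89.8 ± 8.91% in terminal and 68.7 ± 5.11% in lateral leaflets (exact adjusted p = 1.07e-05). The leaflet shares rest on an estimated 3 to 37 fragments per gene and group. Over the apices and the petiole alone the adjusted exact p was 0.0357, where 0.00357 is the smallest unadjusted p that 280 divisions allow. In the TCP19 pair, arahy.CX086V.1 held 47.1 ± 6.54% in mutant apices, 39.0 ± 0.977% in WT apices, 30.4 ± 10.9% in petioles, 44.1 ± 2.69% in terminal and 43.1 ± 3.13% in lateral leaflets (exact adjusted p = 0.00794). That value was 0.0977 without petiole replicate 3, whose share was 17.9%, and 0.0740 for the log2 ratio of the pair. In the TCP20 rows, arahy.XF5UIG.1 held 54.3 ± 2.37% in mutant apices, 46.7 ± 7.96% in WT apices, 41.3 ± 2.15% in petioles, 44.1 ± 3.04% in terminal and 47.2 ± 8.15% in lateral leaflets (exact adjusted p = 0.167), and without lateral replicate 2 the adjusted p was 0.0448.

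**Figure D3:**
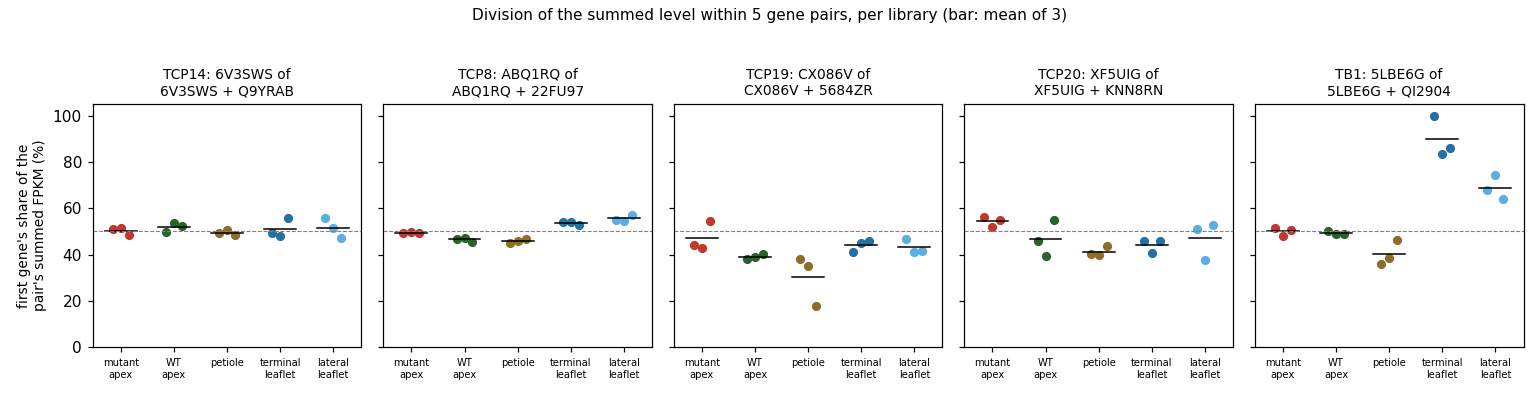
Share (%) of the summed FPKM of 5 gene pairs held by the first gene of each, in every library of the 5 groups; points are libraries, bars are means (n = 3) and the dashed line is an equal division. TCP14 stays near 50% in all groups, TCP8 lies above 50% in leaflets and below it in apices and petioles, and TEOSINTE BRANCHED 1 stands above it in leaflets, where few fragments were counted.

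Genes of the pathways around these factors were followed by lists on the product names, described by counts. Over all genes, the median change was 0.07 in the mutant over the WT apex and −0.09 in the WT apex over leaflets. The shares of all genes to set beside the lists' counts are 23.7% higher and 11.9% lower in the mutant than in the WT apex, and 35.3% higher and 44.3% lower in the WT apex than in leaflets. The CIN-type list had 8 tested genes of 10. In the mutant apex 0 were higher and 8 lower than in the WT apex, with a median change of −0.68, and in the WT apex 0 were higher and 5 lower than in leaflets, with a median of −1.89. The TCP3-like gene arahy.7QL5S6.1 averaged 8.42 ± 0.0569 FPKM in mutant apices and 23.9 ± 0.833 in WT apices, a change of −1.40. Of the class I genes, 8 of 10 were higher in the WT apex than in leaflets, against 35.3% of all genes. The 3 CYC/TB1 genes were higher there too, but they passed the filter only through apex or petiole libraries. Their count is therefore not set against that share.

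TOPLESS-related co-repressors, which can act with TCP proteins in Arabidopsis, and the TCP modifier SPINDLY formed a list of 23 genes with 16 tested. Of these 1 was higher and 3 lower in the mutant than in the WT apex (median −0.06), and 9 were higher and 5 lower in the WT apex than in leaflets (median 0.43). The topless-related gene arahy.8X014Y.1 fell to 17.6 ± 0.537 FPKM in mutant apices, against 28.2 ± 1.49 in WT apices (change −0.65, adjusted p = 9.79e-07). RADIALIS and DIVARICATA, MYB proteins that like CYCLOIDEA take part in patterning the Antirrhinum flower, gave 16 tested genes of 28. Of the 16, 12 were DIVARICATA and 4 RADIALIS products. In the mutant 10 were higher and 2 lower than in the WT apex, against 23.7% and 11.9% of all genes, with a median of 0.37. The DIVARICATA-like gene arahy.7B2ZT1.1 averaged 26.5 ± 0.139 FPKM in mutant apices and 13.5 ± 1.03 in WT apices (change 0.93, adjusted p = 3.43e-07). The RADIALIS-like gene arahy.J7K818.1 averaged 5.87 ± 2.01 FPKM in WT apices and 1.35 ± 0.19 in petioles (change 1.51, adjusted p = 1.83e-06).

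The strigolactone and branching list was drawn by product name and took every SMAX1-LIKE gene, whether or not it acts on bud outgrowth. It had 25 tested genes of 38. Of these 14 were higher and 6 lower in the WT apex than in leaflets (median 0.62), and 5 were higher and 6 lower in the mutant than in the WT apex (median −0.03). The backgrounds were 35.3% higher and 44.3% lower for the tissues and 23.7% higher and 11.9% lower for the mutant. In the mutant the share of higher genes, 5 of 25, was near that of all genes. The share of lower genes, 6 of 25, was larger than that of all genes. The SMAX1-LIKE 4-like gene arahy.A8H1KI.1 had 9.13 FPKM in WT apices, against 0.893 in terminal and 0.887 in lateral leaflets (change 2.42, adjusted p = 4.93e-15). It passed the filter only through apex and petiole libraries, which favoured this direction. Between the leaflets the D14-like gene arahy.1L91FV.1 was lower in the terminal, at 0.533 ± 0.102 FPKM against 1.25 ± 0.241 in the lateral (change −0.55, adjusted p = 0.001). This gene passed the filter only through the lateral libraries, so the filter itself favoured this direction. Cell-cycle genes such as B-type cyclins, a kind of gene that class I factors bind in Arabidopsis, had 32 tested of 36 and split into 11 higher and 2 lower in the mutant than in the WT apex (median 0.08), and 7 higher and 17 lower in the WT apex than in leaflets (median −0.16). All genes leaned the same way, with 23.7% higher and 11.9% lower in the mutant and 35.3% higher and 44.3% lower in the WT apex. Of the 4 tested DELLA genes, growth repressors of the gibberellin pathway whose proteins bind class I TCPs in Arabidopsis, 3 were higher and 1 was lower in the WT apex than in leaflets (median 1.51), and 1 was lower in the mutant than in the WT apex. The DELLA gene GAIP-B, arahy.64CHNN.1, averaged 91.7 FPKM in WT apices, against 23.8 in terminal and 27.5 in lateral leaflets (change 1.81).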

How the data were processed

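The authors deposited FPKM values per gene, per the file headers, printed to 2 decimals, with product names and Tifrunner first-assembly coordinates. The aligner, the quantification tool and the handling of multiply mapped reads were not given in the sources used here. Per the submitters' processing notes the build is TAIR10, an Arabidopsis build, while the identifiers are those of peanut. Leaflet columns and library titles use different abbreviations and were joined by the labelled tissue. RNA was reverse transcribed with random primers, per the labels' protocols.

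A gene was tested where 3 or more libraries reached 1 FPKM (39031 of 59878). The scale was log2(FPKM + 1), on which changes of low genes come out too small. A linear model with 1 mean per group over all 15 libraries was fitted with limma 3.58.1 in R 4.3.3, with trend and robust empirical Bayes, and p-values were adjusted by Benjamini-Hochberg over all genes kept. The leaflet reference is the mean of the terminal and lateral group means. Depth was estimated among genes of 500 to 1000 bases, and estimated fragments follow from it. Permutation tests and figures used Python 3.11.15, numpy 2.4.6 and matplotlib 3.10.9. Exact tests cover the libraries at hand.

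The members and lists were chosen with earlier results of these data known. Values in every library were given for up to 4 called genes per direction with the largest change, where the higher group averaged 2 FPKM or more, for the 3 genes with the highest mean and for CYC/TB1-type genes that reached 1 FPKM in a library; others named were chosen for their pair or after their values were seen. Of each context list, genes were named from the 2 with the smallest p. The RADIALIS list also held 2 CENTRORADIALIS products of another family, neither of which was tested. Alternatives were another pseudocount, no filter, quantile normalization, TPM rescaling, a replicate block, other limma options, fewer groups and leaving out each library.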

Additional observations from a re-analysis of the deposited data

How the results depend on the processing

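The count of members called in the mutant against the WT apex, 5 as reported, was 3 with a pseudocount of 0.1 and ran between 3 and 5 when each library of those groups was left out. In the terminal against the lateral leaflet the count of 0 became 1 with a pseudocount of 0.1 and ran between 0 and 1 when libraries were left out. The other member counts stayed within 1.5 times of the reported ones in all settings run. In the pair shares, the adjusted exact p of TCP19 was 0.0740 with a log2 ratio and ran between 0.0025 and 0.0977 when libraries were left out, that of TCP20 ran between 0.0448 and 0.366, and those of TCP14, TCP8 and TEOSINTE BRANCHED 1 did not cross 0.05. Signs turned for arahy.6V3SWS.1 in the WT apex against the petiole (0.0012 under quantile normalization) and arahy.W24P9U.1, in the mutant against the WT apex (−0.043 without WT apex replicate 1, to 0.0098 without WT apex replicate 2; also above 0 without mutant replicate 3, 0.0042, and WT apex replicate 3, 0.00043) and in the WT apex against the petiole (−0.0093 without WT apex replicate 2, to 0.044 without WT apex replicate 1; also −0.0078 without petiole replicate 3). None of these was called in the setting that turned its sign. Under quantile normalization arahy.W24P9U.1 became called, higher in the WT apex than in the petiole (0.17, adjusted p = 0.0027). Uncalled changes of 4 genes between the leaflets (the TCP19 pair and both TCP20 rows) and of arahy.R5BCDI.1 between the WT apex and the petiole also turned sign in at least 1 setting. The cause was not tested. TPM rescaling also set the filter at 1 TPM.

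Across all genes, same-numbered libraries did not deviate together (30 correlations, −0.055 to 0.050, 0 over 0.1). Whether single genes followed the replicate number was not tested. The row arahy.XF5UIG.1 was lowest in replicate 2 in each of the 5 groups. With the replicate block, 6 members were called between the apices, arahy.XF5UIG.1 being the added one (adjusted p = 0.0386), and 4799 genes between the leaflets against 5106 without it. Genes under 1 FPKM rest on few fragments, at most 22.5 per group for the untested members, which limits what can be seen of the DICHOTOMA-like genes.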
